A study of Mus musculus with 32 samples.

Results

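The uterus at embryonic day E10.5, counted with the morning of the vaginal plug as E0.5, was compared with the uterus at E12.5 in 10 mice, 5 at each time point, chosen by the time point in their labels from the 32 mice of the series. All 10 were pregnant mice of the FVB/N strain, for which the labels name no treatment, and the other 22 were non-pregnant or at another day of gestation. By the study's methods the tissue is the uterine wall at sites where embryos had implanted, with the conceptus removed and the decidua scraped away. The RNA of each mouse was pooled from its tissue samples and hybridised to 1 Illumina MouseRef-8 v2 array, a bead array with 25697 probes. Maternal age is not given per mouse in the labels. The values are log2 intensities on a background-corrected and quantile-normalised scale, in which a difference of 1 is a doubling. In a piece of whole tissue, fewer cells of a type and less RNA per cell cannot be told apart.

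Between these time points the mouse placenta takes over the support of the embryo, and the decidua, the stroma transformed around the embryo after implantation, has passed its peak. The uterine wall outside the decidua is muscle, stroma, glands, vessels and immune cells. In rats the smooth muscle of this wall is known first to divide and later to grow by enlargement of its cells. Cells that divide make a common set of transcripts: the MCM helicase and its loading factors prepare origins of replication, the fork proteins copy the DNA, histones package it, and kinases and kinesins of mitosis separate the chromosomes. E2F factors are known to switch on the first of these groups at G1/S. The mitotic group is known to be controlled through the CHR element, which the DREAM and MuvB complexes bind, and through CCAAT boxes.

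Of 13439 genes tested, 182 (1.35%) passed a limma adjusted p of at most 0.05, 84 higher at E12.5 (0.625%) and 98 lower (0.729%). The median log2 change over all genes was -0.00546. Among the 182 genes, 36 rose and 30 fell by at least 1 log2. The values of the 2 groups did not overlap for 138 of the 182 genes, and over all genes tested all 5 E12.5 mice lay above all 5 E10.5 mice for 1.63% and below them for 1.89%. At an unadjusted p under 0.05 there were 1568 genes. When each of the 10 arrays was left out in turn, 71 of the 182 genes remained past the threshold every time.

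The labelled tissue was checked against marker genes. The smooth muscle genes Acta2, Myh11 and Des were at 13.42 ± 0.20, 13.12 ± 0.34 and 13.84 ± 0.12 (SD, n = 5) at E10.5 and none of them passed the test. Krt8 of the epithelium, Hoxa11 and Pgr of the stroma and Pecam1 of the endothelium were detected on all 10 arrays, and Hand2, another stromal gene, on 2 arrays at E10.5 and none at E12.5. Prl8a2 of the decidua was detected on all 10 arrays too, at 10.94 ± 1.44 at E10.5 and 11.69 ± 1.92 at E12.5 (SD, n = 5). Decidual transcripts were thus present in every mouse although the decidua had been scraped away. The trophoblast genes Tpbpa, Prl3b1, Prl3d1 and Prl2c2 had no named probe among those kept and were not analysed here. The number of detected probes ranged from 13399 to 14351 and did not differ between the groups beyond the spread between mice (difference -22.2, exact 2-sided permutation p = 0.889). One E10.5 mouse, replicate 4, stood apart. A placental trophoblast list had 21 genes detected on at least 1 of the 10 arrays, a filter that a gene high in 1 mouse passes. They averaged 8.24 on the log2 scale in replicate 4, against 4.69 to 4.74 in the other E10.5 mice. E12.5 replicates 3 and 1 averaged 6.44 and 5.41, and the other E12.5 mice 4.63 to 4.70. The summed level of these 21 genes on the linear scale ran from 690.1 to 25279 at E10.5 and from 680.4 to 4458 at E12.5, and none of the 26 measured trophoblast genes passed the test. A decidua list was highest in the same 3 mice, at 9.25 in E10.5 replicate 4, 8.96 in E12.5 replicate 1 and 8.83 in E12.5 replicate 3, against 7.94 to 8.39 in the other 7. Their part in the results was not tested. Without the 3 mice 54 genes were past the threshold, 27 higher and 27 lower, of which 52 were among the 182. That fit has fewer mice, and leaving out 1 mouse already gave between 91 and 268 calls. How far the smaller number of mice alone accounts for calls lost in that fit was not tested.

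**Figure D1:**
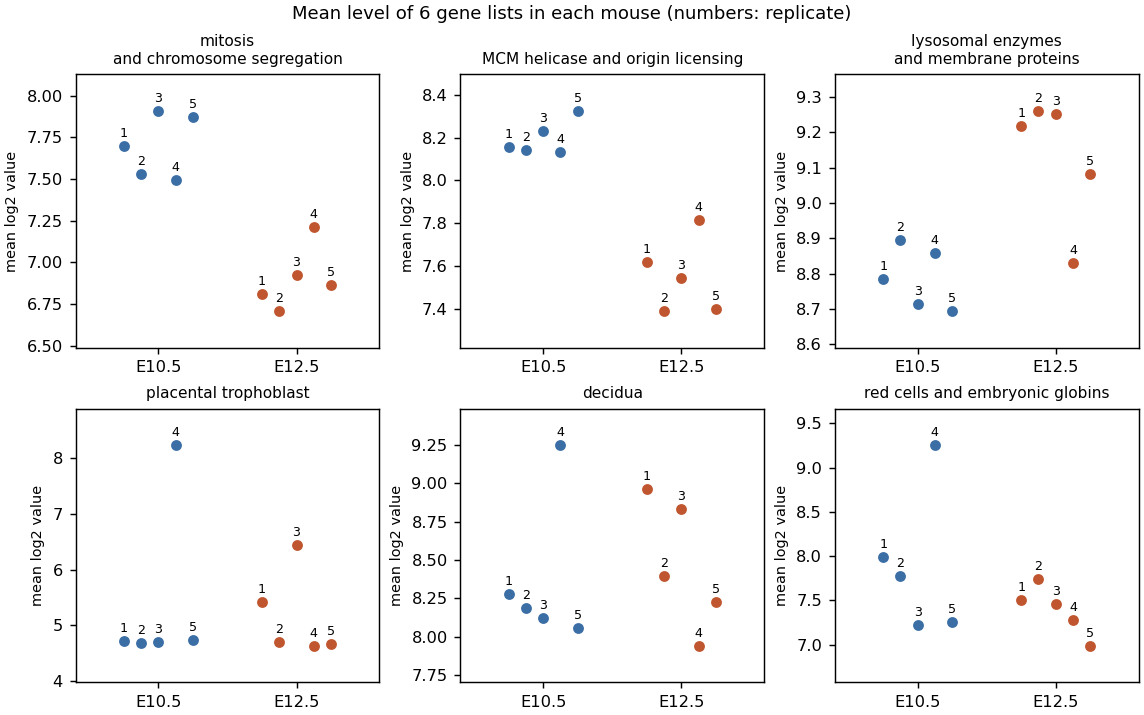
Mean log2 value of the members of 6 gene lists in each of the 10 mice, with the replicate number beside each point. The 2 cell division lists are lower in all 5 E12.5 mice, the lysosomal list is higher in E12.5 mice other than replicate 4, and the placental trophoblast, decidua and red cell lists are highest in E10.5 replicate 4.

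Genes of cell division fell together. Over a list of 38 measured genes of mitosis and chromosome segregation, 37 had a change below 0, 17 passed the test as lower (44.7%, against 0.729% of all genes) and none as higher, and the median log2 change was -0.83. All 5 E12.5 mice lay below all 5 E10.5 mice for 28 of the 38, against 1.89% of all genes. The mean log2 level of this list was 7.49 to 7.91 in the E10.5 mice and 6.71 to 7.21 in the E12.5 mice. E12.5 replicate 4 was the highest of its group and still below every E10.5 mouse.

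Plk1, the kinase that drives entry into and passage through mitosis, had log2 values of 9.75, 9.73, 9.92, 9.60 and 9.86 at E10.5 and 8.62, 8.39, 8.77, 8.91 and 8.66 at E12.5. Its groups lay more than their own spread apart, with a log2 change of -1.10 (SE 0.21, 2.15-fold, limma adjusted p = 0.00413). Birc5 encodes survivin, a subunit of the chromosomal passenger complex, and stood at 9.31, 8.89, 9.29, 8.81 and 9.27 at E10.5 and 7.84, 7.84, 7.85, 8.25 and 7.87 at E12.5, a log2 change of -1.18 (SE 0.25, 2.27-fold, limma adjusted p = 0.0089). Cks2, a small subunit of the cyclin-dependent kinases, had values of 6.69, 6.63, 6.74, 6.58 and 7.08 at E10.5 and 5.93, 5.84, 6.05, 6.13 and 6.24 at E12.5. These groups did not overlap although the change was smaller, at -0.71 (SE 0.13, limma adjusted p = 0.00335). Spag5, a spindle protein, changed by -1.17 (SE 0.22, limma adjusted p = 0.00396) and Cenpa, the histone variant that marks centromeres, by -0.85 (SE 0.18, limma adjusted p = 0.0089). Of the 12 other called genes of this list Kif18b fell by 1.16 and Hjurp by 0.60 on the log2 scale, and between them lay the kinase Aurka and the cohesin protector Sgo1. Kif18b lost its call without E10.5 replicates 3 or 5 or E12.5 replicates 2, 3 or 5 (limma adjusted p up to 0.0689). The count of 17 fell to between 5 and 10 when any 1 array other than E10.5 replicate 4 or E12.5 replicate 4 was left out, rose to 24 without E12.5 replicate 4, and was 3 without the 3 mice high in trophoblast or decidua genes. In that last fit 37 of the 38 genes still lay below 0, with a median of -0.89, and Birc5 and Cenpa, past the threshold in every fit that left out 1 mouse, changed by -1.20 (limma adjusted p = 0.0928) and -0.88 (limma adjusted p = 0.0788).

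**Figure D2:**
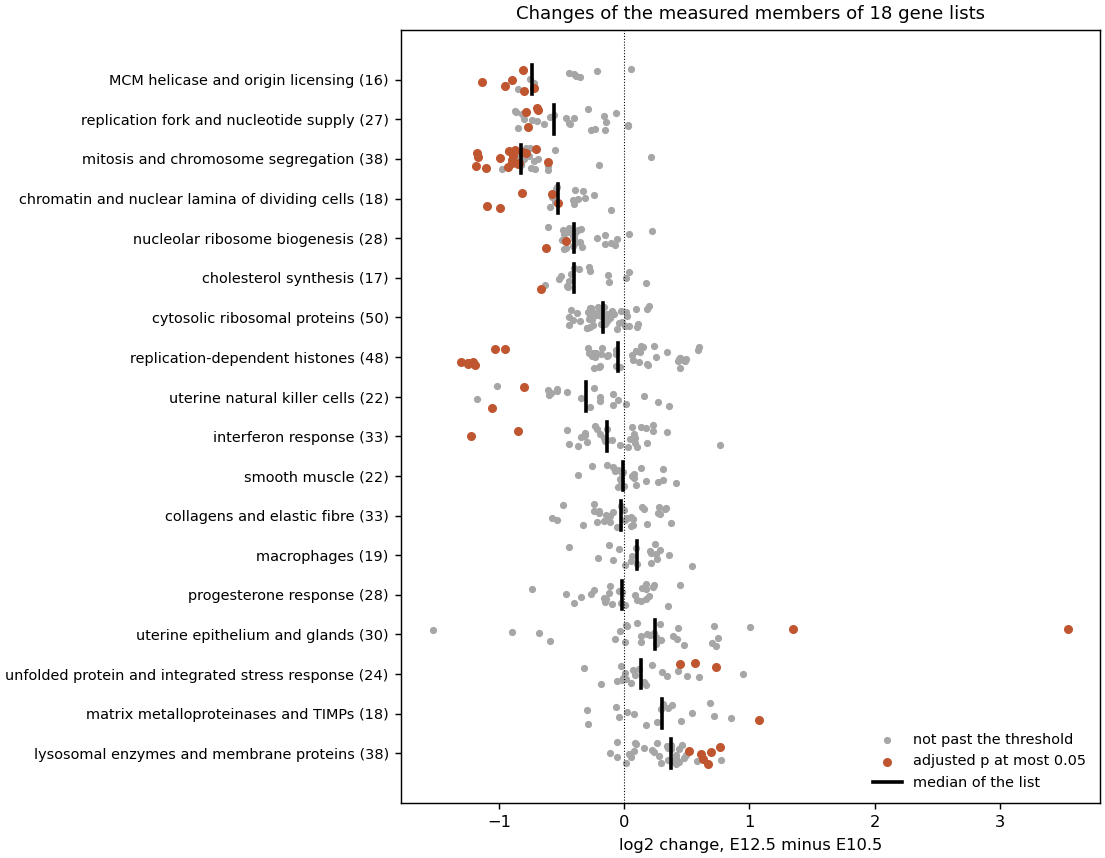
Log2 change from E10.5 to E12.5 of each measured member of 18 gene lists, with the number of members in brackets, called genes in orange and the median of each list as a bar. The 3 lists of replication and mitosis have medians between -0.83 and -0.56, the lysosomal list one of 0.37, and smooth muscle, collagens and progesterone response lie about 0.

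The genes that license and fire origins of replication were lower as well. Of 16 measured, 15 had a change below 0, 6 were called lower (37.5%, against 0.729% of all genes) and none higher, with a median of -0.74. Cdt1, which loads the MCM helicase, had values of 9.15, 9.30, 9.42, 9.37 and 9.17 at E10.5 and 8.58, 8.36, 8.43, 8.24 and 8.33 at E12.5, and the lowest E10.5 mouse stood above the highest E12.5 mouse. Its change was -0.89 (SE 0.17, limma adjusted p = 0.00397). Mcm4, a subunit of the helicase, had values of 10.97, 11.02, 11.01, 10.63 and 11.01 at E10.5 and 10.26, 10.10, 9.97, 10.65 and 10.04 at E12.5. Here E10.5 replicate 4 lay just below E12.5 replicate 4 and the other mice were apart, and the change was -0.72 (SE 0.15, limma adjusted p = 0.0102). Mcm10, which activates the helicase, changed by -1.14 (SE 0.25, limma adjusted p = 0.0164), and its call was lost without E10.5 replicate 5 or E12.5 replicates 2 or 5 (limma adjusted p up to 0.0543). Dbf4, the partner of the kinase that fires origins, changed by -0.80 (SE 0.18, limma adjusted p = 0.0205), a call that was lost without E10.5 replicates 1 or 3 or E12.5 replicate 5 (limma adjusted p up to 0.0871). The helicase subunits Mcm2 and, named after its values were seen, Mcm5 changed by -0.80 (SE 0.19, limma adjusted p = 0.0265) and -0.95 (SE 0.23, limma adjusted p = 0.0333). Mcm2 lost its call without E10.5 replicates 1, 3 or 5 or E12.5 replicates 1, 2 or 5 (limma adjusted p up to 0.0938), and Mcm5 without E10.5 replicates 1, 2, 3 or 5 or E12.5 replicates 1, 2, 3 or 5 (limma adjusted p up to 0.0905). The count of 6 became 3 or 2 without E10.5 replicates 1, 3 or 5 or E12.5 replicates 2 or 5, and 1 without the 3 mice high in trophoblast or decidua genes, where the median was -0.82 and Mcm4 changed by -0.74 (limma adjusted p = 0.0788).

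Among 27 genes of the replication fork and of nucleotide supply 25 lay below 0, 4 were called lower (14.8%, against 0.729% of all genes) and the median was -0.56. Rfc5, a subunit of the clamp loader, had values of 8.07, 8.25, 8.53, 7.90 and 8.51 at E10.5 and 7.40, 7.49, 7.40, 7.71 and 7.42 at E12.5, with no overlap and a change of -0.77 (SE 0.13, limma adjusted p = 0.00144). Chaf1b, a subunit of the complex that deposits histones behind the fork, changed by -0.79 (SE 0.17, limma adjusted p = 0.00961). Ezh2, the methyltransferase of the Polycomb complex, changed by -0.70 (SE 0.15, limma adjusted p = 0.0153) and lost its call without E10.5 replicate 1 or E12.5 replicates 3 or 5 (limma adjusted p up to 0.066). Dnmt1, the maintenance DNA methyltransferase, changed by -0.69 (SE 0.18, limma adjusted p = 0.045). It kept its call in 1 of the 10 fits with a mouse left out, that without E12.5 replicate 4. Without E12.5 replicate 4 the list had 7 calls, and it had 2 without E10.5 replicate 1 or E12.5 replicates 3 or 5. It had 1 without the 3 mice high in trophoblast or decidua genes, with Chaf1b at -0.85 (limma adjusted p = 0.0696) and Ezh2 at -0.65 (limma adjusted p = 0.185), and its median was -0.53.

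All 18 genes of the list of chromatin and lamina proteins of dividing cells lay below 0, with a median of -0.53, and 5 were called lower (27.8%, against 0.729% of all genes). Hmgb2, a DNA-bending chromatin protein, had values of 9.62, 9.36, 9.99, 9.49 and 9.69 at E10.5 and 8.41, 8.63, 8.81, 8.46 and 8.90 at E12.5, a log2 change of -0.99 (SE 0.17, 1.98-fold, limma adjusted p = 0.00182). Lmnb1, which encodes lamin B1, changed by -1.09 (SE 0.21, limma adjusted p = 0.00462). Lbr, the receptor that anchors chromatin to it, changed by -0.53 (SE 0.11, limma adjusted p = 0.00811), with all E12.5 mice at or below 10.21 and all E10.5 mice at or above 10.36. Without E10.5 replicate 3 the count of 5 was 3. It was 1 without the 3 mice high in trophoblast or decidua genes, where Lmnb1 changed by -1.06 (limma adjusted p = 0.0734), Lbr by -0.47 (limma adjusted p = 0.137) and the median was -0.42. Outside the lists, Pclaf, the factor bound to the replication clamp PCNA and named after its values were seen, changed by -1.19 (SE 0.24, limma adjusted p = 0.0064) and Hmgn5, a nucleosome-binding protein, by -1.40 (SE 0.26, limma adjusted p = 0.00377). Hmgn5 was at 8.05 to 9.08 in the E10.5 mice and at 7.00 to 7.50 in the E12.5 mice.

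Histone gene signals did not move as a group on these arrays, and how well the labelling captures these transcripts was not tested. Of 48 measured replication-dependent histones 25 lay below 0, the median was -0.05, and the 8 called lower (16.7%, against 0.729% of all genes) all encode histone H2A. A split of the list made after these values were seen gave a median of -1.03 over 13 H2A genes and of 0.09 over the 35 other histone genes, none of which was called. H2ac11 had values of 8.87, 8.65, 9.05, 8.89 and 8.95 at E10.5 and 7.20, 7.58, 7.64, 7.99 and 7.78 at E12.5, a log2 change of -1.24 (SE 0.20, 2.37-fold, limma adjusted p = 0.000777). H2ac20, the brightest of those printed here, had values of 13.18, 13.22, 13.62, 13.36 and 13.63 at E10.5 and 12.25, 12.53, 12.49, 12.57 and 12.42 at E12.5 and a change of -0.95 (SE 0.17, limma adjusted p = 0.00267). The H2A genes are near copies of each other, and probes for several of them can bind the same transcripts, so the 8 calls may not be 8 separate measurements. Of the 8, 1 was called without the 3 mice high in trophoblast or decidua genes, H2ac11 at -1.10 (limma adjusted p = 0.0413), and H2ac20 changed by -0.91 (limma adjusted p = 0.0588).

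The promoters of 4 called genes are shown because members of the licensing and mitosis lists fell and because the elements that are known to serve such genes can be looked for in them. They are RefSeq promoters of build GRCm38.p6, from 250 bases before to 50 bases after the annotated start, printed 5′ to 3′ on the strand of the gene, with motif matches on either strand in capitals. The motifs were the E2F motifs TTTCGCGC, TTTGGCGC, TTTCCCGC and TTTGCCGC, the CHR motif TTTGAA and the CCAAT box CCAAT. No motif's letters hold those of another. Mcm4 had no entry, and Mcm10 was taken as the next licensing gene by adjusted p.
Cdt1 (chr8:122567765-122568064, plus strand): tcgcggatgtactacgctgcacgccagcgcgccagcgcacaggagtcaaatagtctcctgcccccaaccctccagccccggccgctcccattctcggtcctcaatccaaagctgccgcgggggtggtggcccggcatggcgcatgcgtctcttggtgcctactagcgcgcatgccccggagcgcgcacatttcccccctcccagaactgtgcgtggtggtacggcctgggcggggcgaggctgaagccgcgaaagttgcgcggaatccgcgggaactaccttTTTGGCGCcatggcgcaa
Mcm10 (chr2:5012742-5013041, minus strand): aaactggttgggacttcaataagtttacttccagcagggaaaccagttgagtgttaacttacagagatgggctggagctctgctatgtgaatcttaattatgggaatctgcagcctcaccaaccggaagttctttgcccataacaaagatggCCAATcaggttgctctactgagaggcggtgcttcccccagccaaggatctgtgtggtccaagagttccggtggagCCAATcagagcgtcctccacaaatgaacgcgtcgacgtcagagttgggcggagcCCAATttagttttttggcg
Cks2 (chr13:51644982-51645281, plus strand): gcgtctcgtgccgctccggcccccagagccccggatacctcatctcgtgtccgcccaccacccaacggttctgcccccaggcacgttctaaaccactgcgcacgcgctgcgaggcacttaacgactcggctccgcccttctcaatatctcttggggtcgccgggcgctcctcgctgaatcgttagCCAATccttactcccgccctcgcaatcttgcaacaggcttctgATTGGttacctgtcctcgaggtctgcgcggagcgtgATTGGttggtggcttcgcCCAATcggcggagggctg
Spag5 (chr11:78301341-78301640, plus strand): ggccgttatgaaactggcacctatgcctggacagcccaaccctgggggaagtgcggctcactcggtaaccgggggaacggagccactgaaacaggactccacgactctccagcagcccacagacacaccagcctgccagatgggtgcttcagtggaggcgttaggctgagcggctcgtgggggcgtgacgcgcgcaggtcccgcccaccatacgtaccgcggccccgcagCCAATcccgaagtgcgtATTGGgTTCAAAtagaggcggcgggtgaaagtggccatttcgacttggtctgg
The Cdt1 promoter holds 1 E2F match, which starts 33 bases after the start site. That of Mcm10 holds 3 CCAAT boxes and that of Cks2 4. In the Spag5 promoter 2 CCAAT boxes stand 20 and 3 bases before the start and 1 CHR match follows 4 bases after it.

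Of all 32851 RefSeq promoters 2.26% held an E2F match, 17.9% a CHR match and 37.4% a CCAAT box. Over the 13655 promoters of the genes tested these shares were 3.22%, 13.3% and 37.3%. The E2F share was 46.7% of the 15 promoters of measured licensing genes and 7.69% of the 39 promoters of measured mitosis genes. The CHR share was 76.9% and the CCAAT share 82.1% of those 39 promoters. Among the 106 promoters of all genes called lower, 13.2% held an E2F match, 33.0% a CHR match and 54.7% a CCAAT box. Among the 79 promoters of genes called higher the shares were 0, 7.59% and 36.7%. A match is a run of letters and not a site shown to be bound.

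Lists related to growth had medians nearer 0. Of 28 genes of nucleolar ribosome biogenesis 26 lay below 0 with a median of -0.40, and 2 were called lower (7.14%, against 0.729% of all genes). These were Gar1 at -0.46 (SE 0.11, limma adjusted p = 0.0337) and Nop58 at -0.62 (SE 0.16, limma adjusted p = 0.0411), both proteins of small nucleolar ribonucleoproteins. Gar1 lost its call without E10.5 replicates 2, 3 or 5 or E12.5 replicates 1, 2 or 3 (limma adjusted p up to 0.112), and Nop58 without E10.5 replicates 1, 3 or 5 or E12.5 replicates 1, 2, 3 or 5 (limma adjusted p up to 0.12). The 50 measured ribosomal protein genes had a median of -0.17 and 0 calls by limma, with 14 at an unadjusted p under 0.05, against 1568 of all 13439 genes tested. Of 17 genes of cholesterol synthesis 14 lay below 0, with a median of -0.40, and 1 was called lower (5.88%, against 0.729% of all genes). The call there was Hmgcs1, the enzyme that makes HMG-CoA, at -0.66 (SE 0.17, limma adjusted p = 0.0462), and it was lost when any 1 of 8 mice was left out, that is without E10.5 replicates 1, 2, 4 or 5 or E12.5 replicates 1, 2, 3 or 5 (limma adjusted p up to 0.138). Npm3-ps1, a pseudogene whose probe can also bind transcripts of its parent gene, had values of 11.72, 10.93, 11.06, 11.34 and 11.86 at E10.5 and 9.96, 10.20, 9.75, 10.53 and 10.10 at E12.5, a log2 change of -1.28 (SE 0.20, 2.42-fold, limma adjusted p = 0.000409).

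The regulators that the study put forward for this window were written here as a list of 21 genes, in which interferon alpha was left out, the E2F group stands as E2f1, E2f2 and E2f3 and the VEGF group as Vegfa. The study predicted their activity from the direction of change of their target genes, not from their own transcripts. The transcript levels given here therefore do not test that prediction. Of the 21 genes, 17 were measured and 0 were called at the adjusted threshold. E2f1 changed by -0.42 (SE 0.17, limma adjusted p = 0.288), Foxm1, a driver of mitotic genes, by -0.53 (SE 0.22, limma adjusted p = 0.294), Ccnd1 by -0.48 (SE 0.25, limma adjusted p = 0.462) and Nupr1 by 0.22 (SE 0.19, limma adjusted p = 0.767). The change of Tbx2 was -0.06 (SE 0.22, limma adjusted p = 0.973). The median of the 17 was -0.11 and, without the 3 mice high in trophoblast or decidua genes, -0.23. An unadjusted limma p under 0.05 was found for 2 of the 17, against 1568 of all 13439 genes tested. Of the genes that the study's text names 17 of 22 were measured and 0 were called, among them Pgr, the progesterone receptor, at 0.35 (SE 0.19, limma adjusted p = 0.516), Hsd11b1 at 0.83 (SE 0.33, limma adjusted p = 0.27) and Gja1, the gap junction protein connexin 43, at -0.41 (SE 0.22, limma adjusted p = 0.488).

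The genes that rose included several that encode proteins of epithelia and glands. Cuzd1 (chr7:131308554-131322292, GRCm38.p6), a membrane protein with CUB and zona pellucida domains known as a gene that oestrogen induces in the uterus, had values of 9.02, 10.43, 9.58, 9.18 and 8.85 at E10.5 and 12.94, 12.78, 13.02, 11.99 and 14.05 at E12.5. The lowest E12.5 mouse, at 11.99, was above the highest E10.5 mouse, at 10.43. The log2 change of 3.54 (SE 0.35, 11.7-fold, limma adjusted p = 6.33e-07) was the largest of the 182 genes. Olfm1, a secreted olfactomedin protein, stood at 9.00, 9.53, 10.04, 9.09 and 9.67 at E10.5 and 10.80, 10.14, 10.69, 10.93 and 11.52 at E12.5, with a change of 1.35 (SE 0.24, limma adjusted p = 0.00262). Havcr1, an epithelial receptor for phosphatidylserine, had values of 8.67, 9.19, 9.16, 8.69 and 9.35 at E10.5 and 10.80, 10.38, 10.70, 10.46 and 11.27 at E12.5, a log2 change of 1.71 (SE 0.23, 3.27-fold, limma adjusted p = 6.73e-05). No E12.5 mouse overlapped with an E10.5 mouse in any of these 3 genes.

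**Figure D3:**
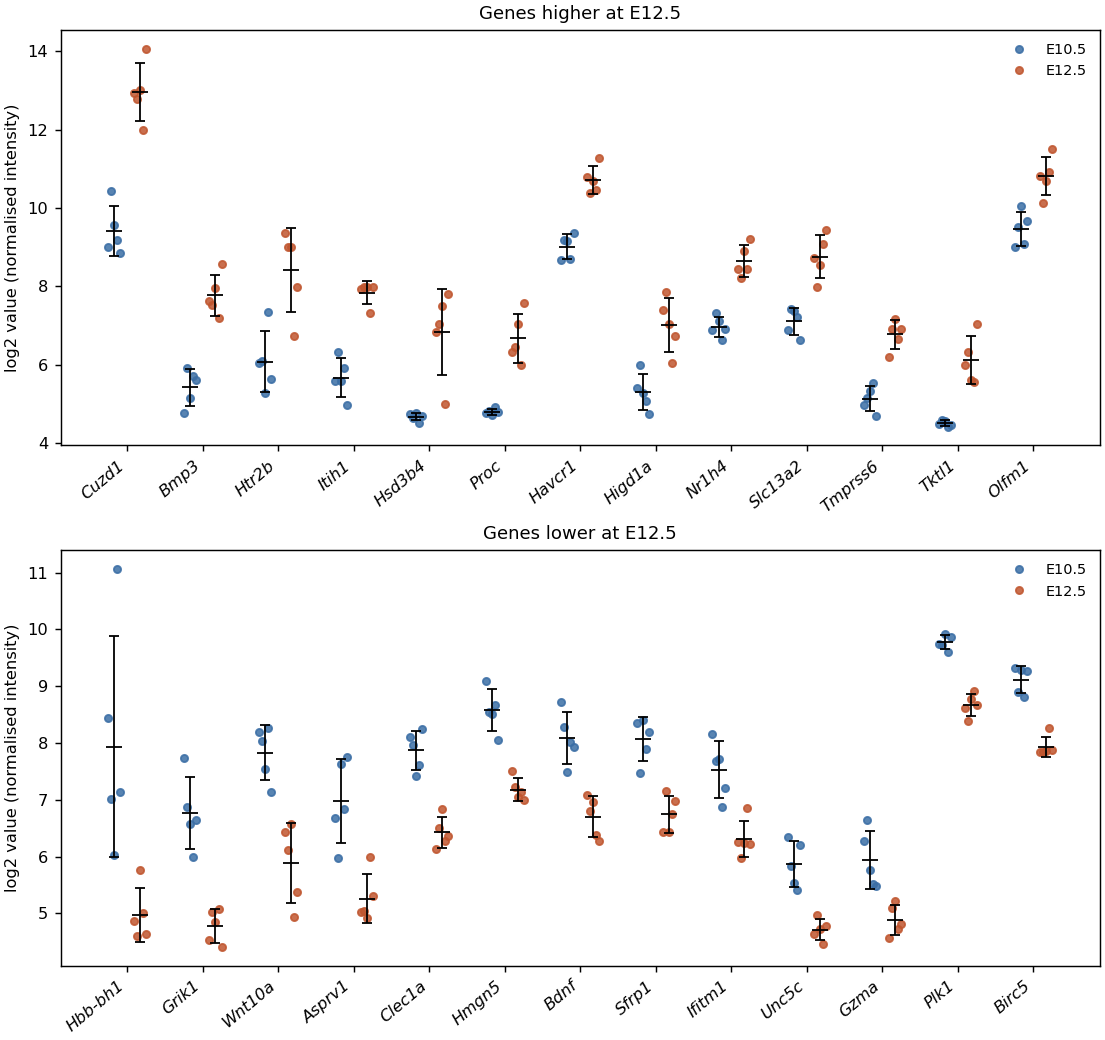
Log2 values of 13 genes higher and 13 genes lower at E12.5 in each of the 5 E10.5 mice (blue) and the 5 E12.5 mice (orange), with the mean and SD. Cuzd1 lies at 8.85 to 10.43 and 11.99 to 14.05 in the 2 groups, and Hbb-bh1 at 6.02 to 11.06 and 4.61 to 5.77.

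Tff1, a trefoil peptide secreted by mucous epithelia, had values of 6.77, 8.38, 4.73, 8.14 and 4.79 at E10.5 and 10.30, 10.74, 9.89, 8.31 and 8.98 at E12.5. Its groups overlapped, since E10.5 replicate 2 lay above E12.5 replicate 4. The log2 change of 3.09 (SE 0.69, 8.5-fold, limma adjusted p = 0.0166) did not hold without E10.5 replicates 3 or 5 or E12.5 replicates 1 or 2 (limma adjusted p up to 0.0719). Fut2, the enzyme that adds the terminal fucose to glycans of secretory epithelia, changed by 1.69 (SE 0.39, limma adjusted p = 0.0216) and lost its call without E10.5 replicate 1 or E12.5 replicates 3 or 5 (limma adjusted p up to 0.0909). Klk1b11, a glandular kallikrein with many near copies in the mouse genome, changed by 2.03 (SE 0.39, limma adjusted p = 0.00413), and Cd24a, a surface glycoprotein chosen after its values were seen, by 1.39 (SE 0.32, limma adjusted p = 0.0216). Cd24a lost its call without E10.5 replicate 1 or E12.5 replicates 3 or 5 (limma adjusted p up to 0.0905). Klk1b11 changed by 1.67 (limma adjusted p = 0.153) without the 3 mice high in trophoblast or decidua genes. Of the 30 measured genes of uterine epithelium and glands 24 lay above 0, as did 6563 of all 13439 genes, and the median was 0.25. The 2 called were Cuzd1 and Olfm1 (6.67%, against 0.625% of all genes called higher). Krt8 and Cdh1, which mark epithelial cells, changed by 0.48 (SE 0.45, limma adjusted p = 0.787) and 0.01 (SE 0.31, limma adjusted p = 0.997). The epithelial markers Krt18 and Krt19 changed by 0.25 (limma adjusted p = 0.902) and 0.70 (limma adjusted p = 0.550).

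Genes of keratinised epithelium moved in both directions. Of 30 measured, 3 were called higher (10.0%, against 0.625% of all genes) and 1 lower (3.33%, against 0.729%), with a median of 0.05. Krt6b, a keratin, had values of 5.06, 5.36, 4.68, 4.64 and 4.40 at E10.5 and 6.65, 6.08, 6.38, 6.78 and 7.01 at E12.5, a log2 change of 1.75 (SE 0.38, 3.37-fold, limma adjusted p = 0.0138), and lost its call without E12.5 replicate 5 (limma adjusted p up to 0.0526). Ly6d changed by 1.62 (SE 0.31, limma adjusted p = 0.00432) and Kazn by 0.72 (SE 0.14, limma adjusted p = 0.0064). Asprv1 (chr6:86628174-86629710), the aspartic protease of the skin barrier, went the other way, with values of 6.67, 5.97, 7.63, 6.84 and 7.76 at E10.5 and 5.03, 5.03, 4.92, 5.99 and 5.31 at E12.5. E12.5 replicate 4 lay just above the lowest E10.5 mouse, and the change was -1.72 (SE 0.29, limma adjusted p = 0.00128). None of the calls of the genes that rose held without the 3 mice high in trophoblast or decidua genes. There Krt6b changed by 1.75 (limma adjusted p = 0.134), Ly6d by 1.32 (limma adjusted p = 0.138) and Kazn by 0.67 (limma adjusted p = 0.0734). Asprv1 kept its call in that fit, at -1.56 (limma adjusted p = 0.0462).

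Several ligands and receptors changed. Bmp3 (chr5:98854415-98884053), a ligand of the BMP family that is known in bone to oppose other BMPs, had values of 4.76, 5.91, 5.14, 5.71 and 5.60 at E10.5 and 7.62, 7.53, 7.96, 7.19 and 8.56 at E12.5. The groups were separate, with a log2 change of 2.35 (SE 0.28, 5.09-fold, limma adjusted p = 1.63e-05). Bmp3 was the 1 called gene among 38 of BMP, activin and TGF-beta signalling (2.63%, against 0.625% of all genes called higher), whose median was 0.04. Htr2b (chr1:86097546-86116231), a serotonin receptor that couples to calcium release, had values of 6.04, 6.09, 5.29, 7.34 and 5.63 at E10.5 and 9.36, 9.01, 9.00, 6.73 and 7.99 at E12.5. The E12.5 replicate 4 value lay below that of E10.5 replicate 4. The log2 change of 2.34 (SE 0.43, 5.06-fold, limma adjusted p = 0.00296) kept its call with each mouse left out, and without the 3 mice high in trophoblast or decidua genes it was 2.14 (limma adjusted p = 0.0315). Gucy1a1, a subunit of the nitric oxide receptor guanylate cyclase, changed by -0.62 (SE 0.16, limma adjusted p = 0.0411) and lost its call without E10.5 replicates 1, 2, 3 or 5 or E12.5 replicates 1, 3 or 5 (limma adjusted p up to 0.132).

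Wnt10a (chr1:74792019-74804176), a Wnt ligand, had values of 8.19, 8.03, 7.54, 8.27 and 7.13 at E10.5 and 6.42, 6.12, 6.57, 4.94 and 5.38 at E12.5. All E12.5 mice were lower, by a log2 change of -1.94 (SE 0.36, 3.84-fold, limma adjusted p = 0.00335). Sfrp1, a secreted inhibitor of Wnt proteins, fell too, at -1.32 (SE 0.33, limma adjusted p = 0.0404), although its call was lost without E10.5 replicates 1, 3 or 5 or E12.5 replicates 1, 3 or 5 (limma adjusted p up to 0.111). These were the 2 calls among 27 Wnt ligands and secreted inhibitors (7.41%, against 0.729% of all genes called lower), whose median was -0.05. Bdnf (chr2:109674700-109727043), the brain-derived neurotrophic factor, had values of 8.73, 8.28, 7.49, 8.03 and 7.92 at E10.5 and 7.09, 6.81, 6.97, 6.38 and 6.28 at E12.5, a log2 change of -1.39 (SE 0.27, 2.61-fold, limma adjusted p = 0.0046). Grik1 (chr16:87895901-88290863), a subunit of kainate-type glutamate receptors, had values of 7.74, 6.87, 6.57, 5.99 and 6.64 at E10.5 and 4.53, 5.02, 4.85, 5.08 and 4.41 at E12.5 and was detected in 5 E10.5 mice and 2 E12.5 mice. Its change was -1.98 (SE 0.30, limma adjusted p = 0.00026). Unc5c, a netrin receptor, was detected in all E10.5 mice and no E12.5 mouse and was at least 1.78-fold lower (limma adjusted p = 0.00276). Pdgfc, a ligand of the PDGF receptors, changed by -0.77 (SE 0.15, limma adjusted p = 0.00413). Both were named after their values were seen.

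Clec1a (chr6:129426684-129452000), a C-type lectin receptor of endothelial and dendritic cells, had values of 8.11, 7.97, 7.42, 7.62 and 8.25 at E10.5 and 6.12, 6.5, 6.84, 6.28 and 6.36 at E12.5. The change of -1.45 (SE 0.20, limma adjusted p = 0.00013) was the 1 call among 31 genes of endothelium and vessel growth (3.23%, against 0.729% of all genes called lower), whose median was -0.03. The endothelial markers Pecam1, Kdr and Tek changed by 0.13 (SE 0.17, limma adjusted p = 0.868), 0.02 (SE 0.13, limma adjusted p = 0.987) and 0.02 (SE 0.19, limma adjusted p = 0.992). Cdh5, a further endothelial marker, changed by 0.47 (limma adjusted p = 0.714). Capn6, a calpain-like protein without protease activity, changed by -1.50 (SE 0.37, limma adjusted p = 0.036) and lost its call without E10.5 replicates 1, 2, 3 or 5 or E12.5 replicates 1, 2, 3 or 5 (limma adjusted p up to 0.104).

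A few genes of bile acid and steroid handling and of transport rose. Hsd3b4 (chr3:98499071-98510579), of the family of 3-beta-hydroxysteroid dehydrogenases, was not detected in any E10.5 mouse and in 4 of 5 E12.5 mice, with values of 4.75, 4.65, 4.77, 4.52 and 4.69 at E10.5 and 6.84, 7.03, 7.50, 4.99 and 7.82 at E12.5. It was at least 3.5-fold higher (limma adjusted p = 0.000133). Members of this family are near copies, and cross-binding was not tested. Nr1h4, the bile acid receptor FXR, had values of 6.88, 7.31, 7.11, 6.62 and 6.90 at E10.5 and 8.45, 8.22, 8.89, 8.44 and 9.21 at E12.5, a log2 change of 1.68 (SE 0.29, 3.2-fold, limma adjusted p = 0.00203). These were the 2 calls among 23 steroid-converting enzymes and receptors (8.70%, against 0.625% of all genes called higher), whose median was 0.10. The call of Nr1h4 was lost without the 3 mice high in trophoblast or decidua genes, at 1.57 (limma adjusted p = 0.0522), and without normalisation between arrays (limma adjusted p = 0.0675). Pltp, the plasma phospholipid transfer protein, named after its values were seen, changed by 1.40 (SE 0.26, limma adjusted p = 0.00325), and by 1.33 (limma adjusted p = 0.0734) without those 3 mice.

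Of 60 measured solute carriers 4 were called higher (6.67%, against 0.625% of all genes) and 1 lower (1.67%, against 0.729%), with a median of 0.06. Slc13a2, which carries citrate and other dicarboxylates with sodium, had values of 6.88, 7.41, 7.38, 7.23 and 6.62 at E10.5 and 8.73, 7.98, 8.55, 9.07 and 9.44 at E12.5, a log2 change of 1.65 (SE 0.22, 3.14-fold, limma adjusted p = 6.73e-05). Slc17a4, an anion transporter, changed by 1.56 (SE 0.25, limma adjusted p = 0.000654) and Slc7a4 by 1.07 (SE 0.17, limma adjusted p = 0.00049). Slc5a3, the sodium-coupled carrier of myo-inositol, changed by 0.89 (SE 0.20, limma adjusted p = 0.0185) and lost its call without E10.5 replicate 3 or E12.5 replicate 5 (limma adjusted p up to 0.0795). Slc2a6, of the glucose transporter family, fell to 8.28 to 8.71 from 9.17 to 9.94, a change of -0.98 (SE 0.18, limma adjusted p = 0.00266). In sugar metabolism Tktl1, a transketolase-like protein, was detected in no E10.5 mouse and in all E12.5 mice, with values of 4.49, 4.60, 4.57, 4.42 and 4.47 at E10.5 and 6.00, 6.34, 5.61, 5.56 and 7.04 at E12.5, and was at least 2.11-fold higher (limma adjusted p = 4.97e-05). Ugp2, which makes UDP-glucose for glycogen and glycan synthesis, changed by 0.82 (SE 0.14, limma adjusted p = 0.00151). Ppp1r3c, a glycogen-targeting subunit of a phosphatase, changed by 1.30 (SE 0.32, limma adjusted p = 0.0349) and lost its call without E10.5 replicates 1, 2, 4 or 5 or E12.5 replicates 1, 4 or 5 (limma adjusted p up to 0.126). Rpia, an enzyme of the pentose phosphate pathway, changed by -0.67 (SE 0.12, limma adjusted p = 0.00308). Ugp2, Ppp1r3c and Rpia were named after their values were seen. Higd1a, a mitochondrial protein induced by hypoxia, changed by 1.71 (SE 0.33, limma adjusted p = 0.00413) and, without the 3 mice high in trophoblast or decidua genes, by 1.52 (limma adjusted p = 0.117), and none of 47 genes of oxidative phosphorylation was called (median -0.08).

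Some of the risers are best known from liver and kidney. Itih1 (chr14:30929180-30943289), a heavy chain of the inter-alpha-trypsin inhibitors that bind hyaluronan, had values of 5.59, 6.31, 5.58, 5.91 and 4.96 at E10.5 and 7.93, 7.99, 7.98, 7.33 and 7.98 at E12.5. The lowest E12.5 mouse was at 7.33 and the highest E10.5 mouse at 6.31, a log2 change of 2.17 (SE 0.31, 4.5-fold, limma adjusted p = 0.00013). Proc, the anticoagulant protein C, was detected in no E10.5 mouse and in all E12.5 mice, with values of 4.77, 4.83, 4.71, 4.91 and 4.79 at E10.5 and 6.34, 6.45, 7.04, 5.98 and 7.57 at E12.5, and was at least 3.13-fold higher (limma adjusted p = 0.00013). These were the 2 calls among 31 serum protein genes that the yolk sac also makes (6.45%, against 0.625% of all genes called higher), whose median was 0.01. The defining yolk sac genes Afp and Ttr were each detected in 1 mouse of each group and Apoa4 in none of the 10, while Amn, also a yolk sac gene, was detected in all 10, with a change of 0.71 (SE 0.47, limma adjusted p = 0.639). Their part in the result was not tested. The summed level of the list ran from 8387 to 12427 at E10.5 and from 9350 to 15494 at E12.5. Without the 3 mice high in trophoblast or decidua genes Itih1 changed by 2.15 (limma adjusted p = 0.00906). A similar rise was seen in 2 genes named after their values were known. Tmprss6, the liver protease that regulates hepcidin, changed by 1.64 (SE 0.22, limma adjusted p = 7.01e-05), and Kap, the kidney androgen-regulated protein, detected in no E10.5 mouse, was at least 2.32-fold higher (limma adjusted p = 0.000225).

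Lysosomal genes lay above 0 in 35 of 38 cases, with a median of 0.37 against -0.00546 for all genes. The test called 6 of them higher (15.8%, against 0.625% of all genes) and 0 lower. Lamp2, a membrane protein of the lysosome, had values of 10.30, 10.46, 10.38, 10.43 and 10.38 at E10.5 and 11.11, 10.97, 10.96, 11.01 and 11.07 at E12.5, a log2 change of 0.63 (SE 0.13, 1.55-fold, limma adjusted p = 0.00555). Lamp2 has 4 probes. These values are from the one with the highest SD, and the one with the highest mean changed by -0.06 with a limma adjusted p of 0.904. The other 5 called genes had limma adjusted p from 0.0342 (Man2b1) to 0.0488 (Pld3). Ctsb, a cathepsin, had values of 13.27, 13.91, 13.83, 13.17 and 13.01 at E10.5 and 14.09, 14.28, 14.09, 13.90 and 14.18 at E12.5, and the groups overlapped. It changed by 0.67 (SE 0.17, limma adjusted p = 0.0411), Man2b1, a mannosidase, by 0.61 (SE 0.15, limma adjusted p = 0.0342), and Neu1, a sialidase, by 0.70 (SE 0.18, limma adjusted p = 0.0471). Ctsb lost its call without E10.5 replicates 1, 4 or 5 or E12.5 replicates 1, 2, 3 or 5 (limma adjusted p up to 0.14), Man2b1 without E10.5 replicates 1, 3 or 5 or E12.5 replicates 1, 2 or 3 (limma adjusted p up to 0.117), Neu1 without E10.5 replicates 1, 3, 4 or 5 or E12.5 replicates 1, 3, 4 or 5 (limma adjusted p up to 0.144) and Pld3 without E10.5 replicates 1, 2, 3, 4 or 5 or E12.5 replicates 1, 2, 3 or 5 (limma adjusted p up to 0.16). The mean of the 38 genes was 8.69 to 8.90 in the E10.5 mice, 8.83 in E12.5 replicate 4 and 9.08 to 9.26 in the other E12.5 mice. The count of 6 was between 1 and 3 without any 1 mouse other than E10.5 replicate 2 or E12.5 replicate 4, 8 without E12.5 replicate 4, and 0 without the 3 mice high in trophoblast or decidua genes, where the median was 0.28 and Lamp2 changed by 0.64 (limma adjusted p = 0.0788). Of 19 measured genes of macrophages, cells rich in lysosomes, 14 lay above 0 and none passed the test (median 0.10, Adgre1 0.01 (SE 0.28, limma adjusted p = 0.997)). The macrophage markers Csf1r and Cd68 were not measured. The part of macrophages in the lysosomal change was not tested. A neighbouring list, that of the unfolded protein and integrated stress response, had 3 of 24 called higher, among them Ppp1r15a, which restarts translation after stress, at 0.73 (SE 0.18, limma adjusted p = 0.0315), and 0 of these 3 calls held without E10.5 replicates 1, 2 or 3 or E12.5 replicates 1 or 3, and 1 without E12.5 replicate 5.

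Transcripts of natural killer cells were lower in part. Gzma, a granzyme, had values of 6.27, 6.65, 5.77, 5.51 and 5.49 at E10.5 and 4.57, 5.09, 5.22, 4.72 and 4.80 at E12.5. It was detected in all E10.5 mice and 2 E12.5 mice and changed by -1.06 (SE 0.21, limma adjusted p = 0.00644). Il15, the cytokine on which these cells depend, had values of 7.48, 7.29, 6.44, 6.39 and 7.08 at E10.5 and 6.11, 6.37, 6.34, 5.74 and 6.13 at E12.5. The lowest E10.5 mouse, at 6.39, and the highest E12.5 mouse, at 6.37, nearly met, and the call of -0.80 (SE 0.19, limma adjusted p = 0.0294) was lost without E10.5 replicates 1, 2 or 5 or E12.5 replicates 1, 4 or 5 (limma adjusted p up to 0.115). Il15ra, its receptor chain, missed the threshold at -1.01 (SE 0.27, limma adjusted p = 0.0504). Of 22 measured genes of this list 18 lay below 0 and 2 were called lower (9.09%, against 0.729% of all genes), with a median of -0.30. Without the 3 mice high in trophoblast or decidua genes 21 lay below 0 and the median was -0.57. With 1 mouse left out 1 to 3 were called. The granzymes that mark the uterine cells, Gzmd and Gzme, changed by -0.09 (SE 0.50, limma adjusted p = 0.981) and 0.02 (SE 0.49, limma adjusted p = 0.997) and Prf1, perforin, by -0.05 (SE 0.46, limma adjusted p = 0.991). The mean of the list ran from 7.60 to 8.56 at E10.5 and from 6.92 to 8.29 at E12.5, so the groups overlapped.

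Among 33 interferon response genes 2 were called lower (6.06%, against 0.729% of all genes) and none higher, with a median of -0.13. Ifitm1, an antiviral membrane protein, had values of 8.16, 7.68, 7.72, 6.87 and 7.21 at E10.5 and 6.26, 5.97, 6.24, 6.85 and 6.22 at E12.5, with E12.5 replicate 4 just under the lowest E10.5 mouse and a log2 change of -1.22 (SE 0.22, 2.33-fold, limma adjusted p = 0.00267). Cxcl9, a chemokine, changed by -0.85 (SE 0.21, limma adjusted p = 0.0396) and lost its call without E10.5 replicates 1, 2 or 3 or E12.5 replicates 1, 3, 4 or 5 (limma adjusted p up to 0.124). Ltb4r1, a leukotriene receptor, changed by -0.998 (SE 0.22, limma adjusted p = 0.0136), a call lost without E10.5 replicate 1 or E12.5 replicate 5 (limma adjusted p up to 0.065), and Il1rn, the interleukin-1 receptor antagonist, named after its values were seen, by -1.03 (SE 0.23, limma adjusted p = 0.0166), lost without E10.5 replicates 1 or 2 or E12.5 replicate 5 (limma adjusted p up to 0.0802). None of 19 T cell genes and none of the 26 measured genes of a chemokine list, which does not hold Cxcl9, was called at the adjusted limma threshold. Of them 1 and 8 had an unadjusted limma p under 0.05, against 1568 of all 13439 genes tested.

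The largest fall was that of an embryonic globin. Hbb-bh1, which is made by primitive red cells of the embryo, had values of 8.45, 7.01, 6.02, 11.06 and 7.13 at E10.5 and 4.87, 4.61, 5.77, 5.01 and 4.63 at E12.5. E10.5 replicate 4, the mouse high in trophoblast genes, was the highest, and the other E10.5 mice were at 6.02 to 8.45, above all E12.5 mice. The log2 change of -2.96 (SE 0.61, 7.77-fold, limma adjusted p = 0.00835) kept its call without E10.5 replicate 4. Without the 3 mice high in trophoblast or decidua genes it was -2.41 (limma adjusted p = 0.051). The other embryonic globins on the list, Hba-x and Hbb-y, had values of 7.52, 6.44, 5.24, 10.51 and 6.11 at E10.5 and 5.40, 5.04, 5.82, 5.46 and 4.71 at E12.5 and of 9.62, 8.69, 6.25, 12.15 and 7.42 at E10.5 and 9.29, 7.52, 8.78, 7.46 and 6.61 at E12.5. Hba-x changed by -1.88 (SE 0.56, limma adjusted p = 0.103) and Hbb-y by -0.89 (SE 0.72, limma adjusted p = 0.742). In both, the E10.5 replicate 4 value was the highest of the 10. The mean of the 10 detected red cell genes ran from 7.22 to 9.25 at E10.5 and from 6.99 to 7.75 at E12.5.

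In the decidua list 1 of 16 genes was called higher (6.25%, against 0.625% of all genes) and 1 lower (6.25%, against 0.729%). Tdo2, a tryptophan-degrading enzyme that is strongly made in decidual cells, had values of 8.01, 7.58, 7.48, 8.11 and 7.42 at E10.5 and 6.82, 6.72, 6.55, 6.38 and 5.68 at E12.5. All E12.5 mice were lower, but the call at -1.29 (SE 0.33, limma adjusted p = 0.0411) was lost whichever of the 10 mice was left out. Htra3, a secreted serine protease, had values of 10.95, 11.21, 10.87, 12.99 and 11.15 at E10.5 and 13.17, 12.82, 13.13, 12.23 and 12.12 at E12.5, in which E10.5 replicate 4 was higher than 3 of the E12.5 mice. The log2 change of 1.26 (SE 0.31, 2.39-fold, limma adjusted p = 0.0342) was lost without E10.5 replicates 1, 2, 3 or 5 or E12.5 replicates 1, 2 or 3 (limma adjusted p up to 0.111), and it was 1.34 (limma adjusted p = 0.0182) without the 3 mice high in trophoblast or decidua genes. In Tchhl1 and Zbtb8b, which are also among the largest rises, E10.5 replicate 4 was the highest E10.5 mouse as well and the groups overlapped. Their values were 5.69, 6.66, 4.79, 8.76 and 5.06 at E10.5 and 9.48, 8.89, 9.42, 6.53 and 7.30 at E12.5 for Tchhl1 and 5.81, 6.85, 6.01, 8.46 and 5.68 at E10.5 and 9.04, 8.20, 9.53, 7.47 and 7.58 at E12.5 for Zbtb8b, and both calls were lost without any 1 of 7 mice, that is without E10.5 replicates 1, 2, 3 or 5 or E12.5 replicates 1, 2 or 3 (limma adjusted p up to 0.159) for the first and E10.5 replicates 1, 2, 3 or 5 or E12.5 replicates 1, 2 or 3 (limma adjusted p up to 0.139) for the second. Prl8a2, a prolactin family hormone of the decidua, changed by 0.75 (SE 0.92, limma adjusted p = 0.854).

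Lists of muscle, matrix and hormone response had few calls. None of 22 smooth muscle genes was called (median -0.01), none of 28 progesterone response genes (median -0.02), none of 33 collagen and elastic fibre genes (median -0.03) and none of 18 genes of uterine identity (median -0.00). In the list of receptors for agents that contract or relax the uterus, Htr2b and Gucy1a1 were the 2 calls among 19 (5.26% higher and 5.26% lower, against 0.625% and 0.729% of all genes). In that of ion channels and gap junctions Kcnj8, a subunit of potassium channels gated by ATP, was the 1 call among 30 (3.33% higher), at 0.86 (SE 0.22, limma adjusted p = 0.04). The Kcnj8 call was lost without E10.5 replicates 1, 2, 3, 4 or 5 or E12.5 replicates 1, 3, 4 or 5 (limma adjusted p up to 0.138). Of 18 matrix metalloproteinases and their inhibitors 14 lay above 0 with a median of 0.30, and 1 was called higher (5.56%, against 0.625% of all genes). The call there was Mmp10, a stromelysin, at 1.08 (SE 0.28, limma adjusted p = 0.0471), and it was lost without E10.5 replicates 1, 2, 4 or 5 or E12.5 replicates 1, 2, 3 or 5 (limma adjusted p up to 0.162). At an unadjusted limma p under 0.05 there were 0 of 22 genes for smooth muscle, 1 of 28 for progesterone response, 2 of 33 for collagens and 1 of 18 for uterine identity. There were 3 of 19 for the receptors, 7 of 30 for ion channels and gap junctions and 7 of 18 for metalloproteinases and their inhibitors. Over all 13439 genes tested there were 1568. Without the 3 mice high in trophoblast or decidua genes the medians of smooth muscle and of collagens and elastic fibre were 0.05 and 0.07, and that of BMP, activin and TGF-beta signalling was -0.02. A list without a call was not thereby shown to be unchanged.

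To ask whether these changes belong to this window, the change from E10.5 to E12.5 was set against the change from E15.5 to E17.5 in 10 other mice, which is also an interval of 2 days. From E15.5 to E17.5 59 genes (0.439%) were called, 41 higher and 18 lower, and 6 genes were called in both windows. The difference of the changes itself was past the threshold for 64 genes (0.476%), 39 of them among the 182. Of these 39, 28 had risen and 11 had fallen at E12.5. The count of 64 was 147 without E12.5 replicate 4 and 36 to 42 without E10.5 replicates 1, 3 or 5 or E12.5 replicate 3. For Cuzd1 the later change was -0.08 and the difference 3.63 (SE 0.50, limma adjusted p = 0.000119). For Bmp3 they were -0.54 and 2.89 (SE 0.39, limma adjusted p = 0.000119), and for Havcr1, which fell from E15.5 to E17.5, -1.06 and 2.77 (SE 0.32, limma adjusted p = 1.73e-05). Itih1 fell as well in the later window, by a change of -1.51, with a difference of 3.68 (SE 0.44, limma adjusted p = 1.73e-05). Among the genes that fell at E12.5, Wnt10a differed by -2.26 (SE 0.51, limma adjusted p = 0.0355), Bdnf by -1.61 (SE 0.38, limma adjusted p = 0.0463), Asprv1 by -1.84 (SE 0.41, limma adjusted p = 0.0311) and Hmgb2 by -1.06 (SE 0.24, limma adjusted p = 0.0377). For Plk1 the later change was -0.16 and the difference -0.94 (SE 0.30, limma adjusted p = 0.181), which did not pass the threshold.

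**Figure D4:**
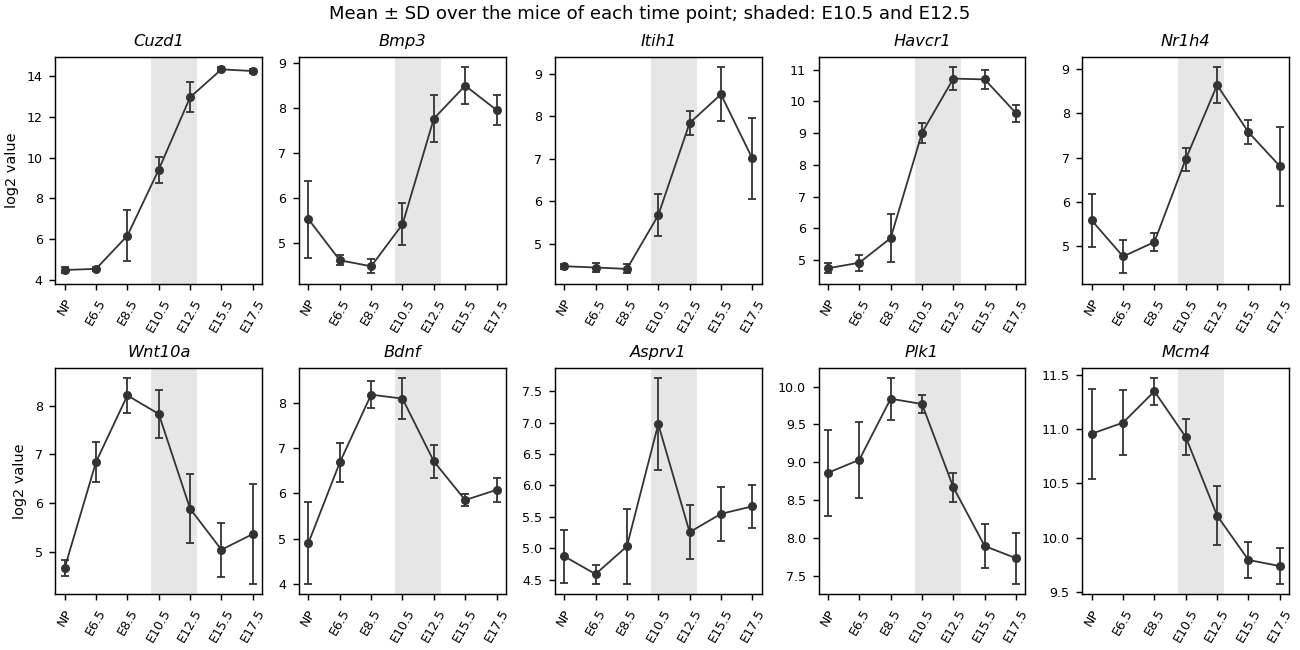
Mean log2 value ± SD of 10 genes at the 7 time points (4 mice at NP, E6.5 and E8.5, 5 later), with the E10.5 to E12.5 window shaded. Cuzd1 rises from 9.41 to 12.96 in the window, and Asprv1 is higher at E10.5, with a mean of 6.97, than at the other time points, where its means lie between 4.59 and 5.67.

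The levels over all time points place the window. Cuzd1 was not detected in non-pregnant or E6.5 mice, stood at 6.17 ± 1.26 (SD, n = 4) at E8.5 and 9.41 ± 0.63 (SD, n = 5) at E10.5, and later at 12.96 ± 0.74 and 14.32 ± 0.10. Nr1h4 was highest at E12.5, with 8.64 ± 0.40 there and 7.57 ± 0.27 at E15.5. Hsd3b4 was at 6.84 ± 1.10 at E12.5 and at 5.24 ± 0.49 at E15.5, and it was detected in 4, 3 and 1 of 5 mice from E12.5 to E17.5. Kap went on from 6.24 ± 0.79 at E12.5 to 10.94 ± 0.42 and 13.33 ± 0.39. From E8.5 to E15.5 Plk1 was in turn at 9.84 ± 0.27, 9.77 ± 0.12, 8.67 ± 0.19 and 7.89 ± 0.29, and Mcm4 at 11.35 ± 0.12, 10.93 ± 0.17, 10.20 ± 0.27 and 9.80 ± 0.17. Steps that share the E10.5 or E12.5 mice with the window are given here as levels only.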

How the data were processed

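The authors extracted total RNA, amplified and biotinylated it and hybridised it to the arrays. They deposited 1 summarised intensity per probe and array before normalisation, with a detection p-value from negative control beads beside each deposited intensity. The authors also deposited log2 values, for which limma had been used to subtract background by means of the control beads and to quantile-normalise the arrays, without the 5528 of 25697 probes whose detection p was above 0.05 on all 32 arrays. These log2 values were used here. Values recomputed with neqc (offset 16) were a median of 0.000323 away. The bead summary's settings are not given in these sources.

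Of 20169 probes kept, 18903 carry 1 gene symbol in the platform annotation, updated through Entrez to RefSeq GRCm38.p6, and 1266 carry none. The probe with the highest SD was taken where a gene had several (3704 of 13439 genes). Limma 3.58.1 in R 4.3.3 fitted the means of the 7 time points to all 32 arrays, and the contrast was tested 2-sided with Benjamini-Hochberg adjustment over all genes at 0.05. Each array is 1 mouse, and no batch is named in the labels. A gene with no array at a detection p under 0.05 in 1 group is not well above background there. Its bound sets the mean of the brighter group against, per array, the higher of the probe's value and the lowest value of a detected probe. Medians and counts of gene lists are descriptions without a test. The shares to set them against are those of all genes tested, 0.625% called higher and 0.729% called lower. The 40 lists and the genes to be named were chosen with earlier results of these data known. Named were the 15 largest rises and falls among called genes, the 5 smallest adjusted p in each direction, up to 5 genes of each list, the markers, and all regulators and genes that the study's text names. The text describes those on which the results turn, and says where a gene was named after its values were seen. The fit was tested on simulated data. The alternatives covered the source of the values, background, normalisation, filter, probe, model, replicate number and each array left out. The number of detected probes was compared with an exact permutation test, whose smallest p is 0.00794 with 5 against 5. Python 3.11.15 with pandas 2.3.3 and matplotlib 3.10.9 was used for lists and figures.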

Additional observations from a re-analysis of the deposited data

Results flagged for a closer look

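A sample far from the other 4 of its group was looked for with Dixon's test (critical value 0.71) in 280 groups, 200 of single genes and 80 of list means. It was found in 15 (5.36%), and chance alone gives about 1 in 20. The list means cover the members detected on any of the arrays compared. A member can thus be included through the mouse that stands out. E10.5 replicate 4 accounted for 6 of the 15 and E12.5 replicate 4 for 4. In E10.5 replicate 4 the mean log2 level was 8.24 for placental trophoblast, 9.25 for decidua, 8.04 for steroid-converting enzymes and 7.71 for BMP, activin and TGF-beta signalling, all above the other E10.5 mice, Htra3 was high at 12.99 and Mcm4 low at 10.63. In E12.5 replicate 4 the histone list was low at 7.27 and Itih1 at 7.33, while Birc5 was high at 8.25 and Rfc5 at 7.71. The others were serum proteins at 6.55 in E12.5 replicate 3, Klk1b11 at 5.97 in E10.5 replicate 2, Kap at 7.61 in E12.5 replicate 5, Slc7a4 at 7.36 in E12.5 replicate 2 and H2ac15 at 10.45 in E12.5 replicate 1.

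The change from E10.5 to E12.5 differed from that from E15.5 to E17.5 for 64 genes by a limma contrast. Among the genes described that were detected in at least 1 mouse of each of the 4 groups, the difference was positive for Tff1 (6.00 (SE 0.98, limma adjusted p = 0.00135)), Klk1b11 (3.82 (SE 0.55, limma adjusted p = 0.000264)), Itih1 (3.68), Cuzd1 (3.63), Tchhl1 (3.61 (SE 0.78, limma adjusted p = 0.0257)), Htr2b (2.98 (SE 0.60, limma adjusted p = 0.015)), Bmp3 (2.89), Havcr1 (2.77), Higd1a (2.53 (SE 0.46, limma adjusted p = 0.00435)), Nr1h4 (2.44 (SE 0.42, limma adjusted p = 0.00215)), Tmprss6 (2.11), Slc17a4 (1.99), Slc13a2 (1.94), Pltp (1.59), Olfm1 (1.43), Slc7a4 (1.23) and Ugp2 (1.14). It was negative for Wnt10a (-2.26), Asprv1 (-1.84), Bdnf (-1.61), Npm3-ps1 (-1.45), Lmnb1 (-1.28), Hmgb2 (-1.06) and Pdgfc (-1.03).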

How the results depend on the processing

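Under 22 alternatives (21 for Hsd3b4 and C4bp), 18 of the 97 called genes followed through them kept their direction and their call throughout: Cuzd1, Bmp3, Itih1, Hsd3b4, Havcr1, Tmprss6, Tktl1, Grik1, Wnt10a, Asprv1, Clec1a, Hmgn5, Bdnf, Npm3-ps1, Unc5c, Cks2, H2ac11 and Slc2a6. In the 1 reversal Lamp2 changed by -0.0644 with the probe of the highest mean, a different probe, and the cause was not tested. Counts of called genes (all, higher, lower, and differing from the later window) were 182, 84, 98 and 64. They were 38, 16, 22 and 39 without normalisation between arrays, where the median of all genes was -0.125, and 491, 229, 262 and 384 with array quality weights. The count differing from the later window was 42 with all probes kept. Without the 3 mice high in trophoblast or decidua genes they were 54, 27, 27 and 30, and without E10.5 replicate 4 and E12.5 replicate 3, chosen after seeing the data, 115 were called and 58 were lower. With 1 array left out they ranged from 91 to 268, 40 to 125, 45 to 143 and 36 to 147, highest without E12.5 replicate 4 and, for the first, lowest without E12.5 replicate 5. The difference in detected probes ranged from -119.4 to 118.6. The replicate numbers do not pair the mice: correlations of deviations ran from -0.41 to 0.33, 1 of 5 numbers correlated best with itself, and a replicate block gave 107 calls, 47 higher and 60 lower. Signal near background limits Hsd3b4, Proc, Kap, Tktl1, Unc5c and C4bp to bounds.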

Other observations

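Of the 182 genes, 99 were on none of the 40 lists, and the following were picked from them after their values were seen. Ghr, the growth hormone receptor, had log2 values of 6.05, 6.20, 6.51, 6.07 and 6.55 at E10.5 and 7.62, 7.74, 7.36, 6.99 and 7.42 at E12.5, a change of 1.15 (SE 0.29, limma adjusted p = 0.038) that lost its call without E10.5 replicates 1, 2, 3 or 4 or E12.5 replicates 1, 2, 3 or 5 (limma adjusted p up to 0.105). C4bp, an inhibitor of complement that circulates in serum, was detected in no E10.5 mouse and was at least 1.88-fold higher (limma adjusted p = 0.045), a call lost without E10.5 replicates 1, 2, 3, 4 or 5 or E12.5 replicates 1 or 5 (limma adjusted p up to 0.142). Scamp5, a membrane protein of secretory vesicles, had values of 8.26, 8.86, 8.91, 8.72 and 8.92 at E10.5 and 9.65, 9.60, 9.61, 10.03 and 10.19 at E12.5 and changed by 1.08 (SE 0.15, limma adjusted p = 0.00013). Islr2, a membrane protein with leucine-rich repeats, had values of 5.98, 5.87, 5.23, 5.79 and 5.41 at E10.5 and 7.80, 8.07, 7.09, 6.64 and 6.59 at E12.5 and changed by 1.58 (SE 0.30, limma adjusted p = 0.00413), and by 1.48 (limma adjusted p = 0.0829) without the 3 mice high in trophoblast or decidua genes. None of 17 genes of the circadian clock and none of 24 immediate early and heat shock genes was called at the adjusted threshold, with medians of 0.10 and 0.02 that were -0.06 and -0.04 without those 3 mice. Of them 2 and 4 had an unadjusted limma p under 0.05, against 1568 of all 13439 genes tested.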
